A study of Macaca mulatta with 7 samples.

Results

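The genes described here encode 8 proteins of the complement system: the C1q chains C1QA, C1QB and C1QC, the central component C3, the pore components C7 and C9, the inhibitor CFI and the receptor chain ITGAM. They were chosen by symbol, 8 of the 28966 symbols or identifiers in the matrices of the rhesus monkey spinal cord. The matrices gave a symbol for 6 of them, while C1QA and CFI were listed by identifier alone and were named from the reference table. Their RNA was counted as unique molecular identifiers (UMIs) in single nuclei and is given as CPM, the UMIs of a gene scaled to the same total for each class of nuclei in each library.

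Complement is a cascade of proteins that tags debris, microbes and cell surfaces. The hexameric C1q recognition protein is assembled from the 3 kinds of chain and starts the classical pathway, C3 is the component on which all pathways meet and whose fragments coat targets, and CFI is a protease that inactivates those fragments. ITGAM (CD11b) pairs with ITGB2 to form complement receptor CR3, which binds coated targets, and C7 and C9 belong to the terminal complex that can pierce membranes. In the central nervous system, microglia are the known main source of C1q, and complement has been linked to the removal of synapses and debris by these cells.

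Nuclei came from 7 libraries, 1 per group. Intact cervical, thoracic and lumbar cord were taken at 5 years of age, and lumbar cord was taken at 7, 14 and 30 days post injury (dpi), at ages of 7, 7 and 6 years, and at 6 months post injury (mpi), at 6 years. The injury was a complete thoracic one, so that the lumbar tissue lay below the lesion and was spared by it; by the study's account the animals were female, the 3 intact segments came from 1 animal, and 1 animal was sequenced per group. Time, animal, age and library therefore cannot be told apart, there is no replicate check and no test between groups, and all intervals below cover counting error only. The 6 mpi library was the shallowest, with 5637 kept nuclei and a median of 3173 UMIs. The other libraries had 8723 to 11001 kept nuclei and medians of 4820.5 to 7311. Among all barcodes, 489 sequences occurred in more than one library, between 12 and 36 for any pair of libraries.

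The C1q chains lie side by side on the minus strand of chromosome 1 of the Mmul_10 genome: C1QB at chr1:202117786-202126077, C1QC at chr1:202131138-202135635 and C1QA at chr1:202139634-202142742, with 5060 and 3998 bases between them. Each C1q gene has 3 exons, and none overlaps another annotated gene. C3, with 41 exons, lies at chr19:6596887-6638613 on the minus strand. CFI lies at chr5:108092472-108164396 and C9 at chr6:39107945-39190846, both on the minus strand and without an overlapping gene. C7 (chr6:40770204-40857197, plus strand) holds 2 annotated genes on its other strand, and ITGAM (chr20:28696099-28790176, plus strand) holds 1 on its own strand and 1 on the other. Positions are those of the RefSeq annotation.

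The 250 bases just before the annotated start of the 3 C1q chains and of C3 are shown because these genes were highest in one and the same class of nuclei (below) while their levels moved apart after injury. They were read from the Mmul_10 genome 5′ to 3′ on the strand of the gene, at chr1:202142743-202142992 for C1QA, chr1:202126078-202126327 for C1QB, chr1:202135636-202135885 for C1QC and chr19:6638614-6638863 for C3. Capitals mark matches, on either strand, to the PU.1 box GAGGAA or to the C/EBP pattern TTNNGNAAT, both named for factors of myeloid cells. The window of ITGAM, also highest in that class of nuclei, held no match to either pattern and is not shown.
C1QA: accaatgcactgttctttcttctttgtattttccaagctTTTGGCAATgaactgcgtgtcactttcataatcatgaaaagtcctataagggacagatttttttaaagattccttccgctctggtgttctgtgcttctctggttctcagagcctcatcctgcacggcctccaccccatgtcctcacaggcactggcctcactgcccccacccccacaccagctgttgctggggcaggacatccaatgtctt
C1QB: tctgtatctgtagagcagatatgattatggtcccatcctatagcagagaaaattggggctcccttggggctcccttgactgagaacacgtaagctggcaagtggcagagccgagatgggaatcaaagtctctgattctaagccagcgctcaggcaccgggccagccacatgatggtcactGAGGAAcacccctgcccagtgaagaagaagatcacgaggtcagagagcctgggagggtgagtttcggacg
C1QC: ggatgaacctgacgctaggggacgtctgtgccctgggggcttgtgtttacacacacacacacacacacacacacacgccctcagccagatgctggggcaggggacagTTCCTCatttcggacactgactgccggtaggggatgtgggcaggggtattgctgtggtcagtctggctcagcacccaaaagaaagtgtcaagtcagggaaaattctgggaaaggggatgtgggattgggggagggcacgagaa
C3: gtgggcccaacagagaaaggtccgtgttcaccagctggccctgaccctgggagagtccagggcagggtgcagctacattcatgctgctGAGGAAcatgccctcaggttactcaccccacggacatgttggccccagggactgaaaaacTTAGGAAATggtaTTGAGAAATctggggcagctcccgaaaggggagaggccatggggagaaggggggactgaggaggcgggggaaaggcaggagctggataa
The PU.1 box was found upstream of C1QB, C1QC and C3 and, of 20782 protein-coding windows of the same length, in 21.8%. The C/EBP pattern was found upstream of C1QA, C9 and, at 2 places, C3, and in 9.16% of all windows. The AP-1 pattern TGANTCA (5.15% of windows) and the IRF repeat, a pair of GAAA runs split by any 2 bases (3.03%), matched none of the 8 windows. The patterns did not overlap each other in these windows, and a match describes the letters only.

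The first question was which nuclei held the complement RNA. Clusters were named from markers as microglia/macrophage-like (below, microglia-like; 20419 nuclei), oligodendrocyte-like (21969), neuron-like (8919), astrocyte-like (4202) and oligodendrocyte precursor (OPC)-like (3955). Microglia-like nuclei held 86.1% of all C1QA UMIs, 86.2% of C1QB, 87.8% of C1QC, 91.8% of C3 and 93.7% of ITGAM. For each of these 5 genes the lowest microglia-like level in any library lay above the highest level in each of the other 4 classes. CFI was spread instead, with 42.4% of its UMIs in neuron-like and 32.5% in oligodendrocyte-like nuclei, C9 had 69.3% in oligodendrocyte-like nuclei, and C7 was scattered, with 34.8% in neuron-like, 22.6% in astrocyte-like and 21.0% in unnamed clusters. Such shares also follow the number and depth of the nuclei, so they do not rank the classes by level. Median UMIs were 30445 in neuron-like, 6531 in oligodendrocyte-like and 4068 in microglia-like nuclei.

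**Figure D1:**
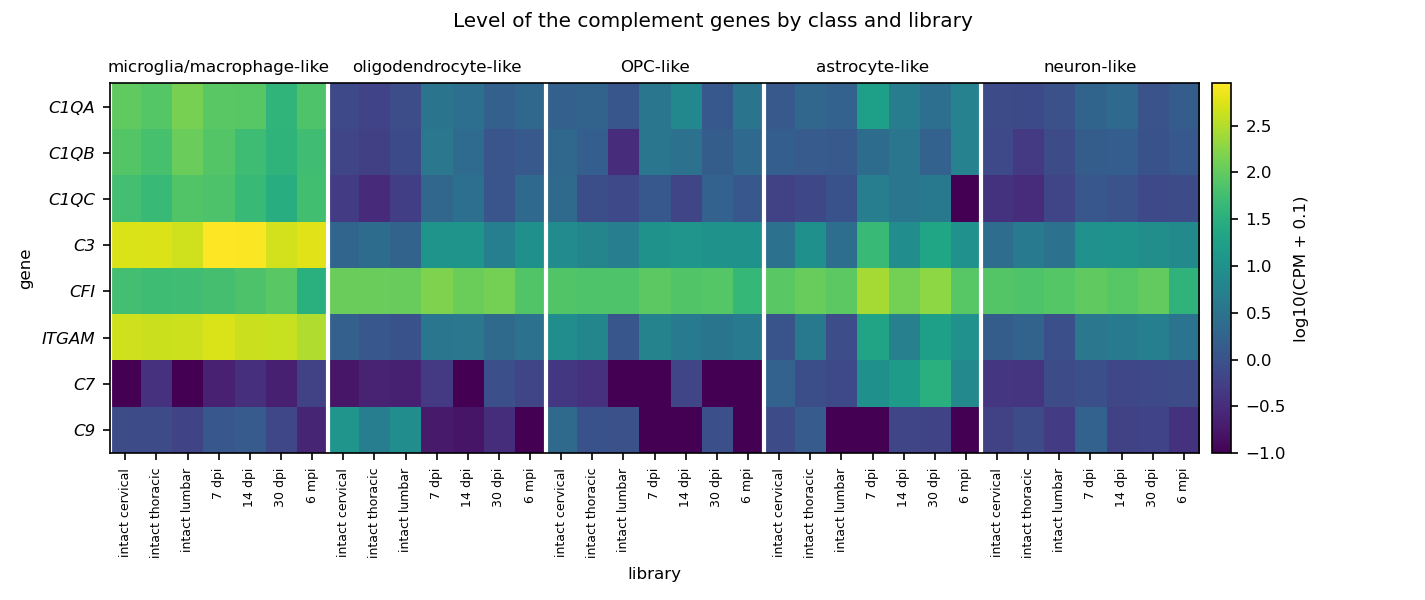
Heat map of log10(CPM + 0.1) of the 8 complement genes (rows) in 5 classes of nuclei, each split into the 7 libraries (columns). C1QA, C1QB, C1QC, C3 and ITGAM stand out in the microglia-like columns, CFI lies between 31.9 and 258 CPM throughout, and C9 is above 4 CPM in the 3 intact oligodendrocyte-like columns only.

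Of the microglia/macrophage markers, all 7 were found, and their summed level was 6525 to 7908 CPM in the intact libraries and 6144, 8191, 6271 and 4162 CPM at 7, 14, 30 dpi and 6 mpi. Lists of other cells were also measured in this class. The 6 perivascular macrophage markers summed to 1004 to 1691 CPM in the intact libraries and to 519, 643, 404 and 222 CPM after injury, with CD209 at 0 to 0.136. The monocyte/neutrophil markers summed to 57.1 to 93.9 CPM in the intact libraries and to 125, 35.6, 149 and 26.8 after injury, and the B cell markers to 52.4 to 62.0 and to 64.0, 148, 33.3 and 22.6, with CD79A and CD79B at or under 0.198. The endothelial list summed to 803 to 851 CPM in the intact libraries and to 1517, 832, 838 and 849 after injury, most of it VWF, while CLDN5 and ERG stayed under 1. The oligodendrocyte list summed to 974 to 1353 CPM and the astrocyte list to 462 to 1026 CPM over the 7 libraries. The part of these cells in the results below was not tested. The class was also made of different clusters: of the 5644 nuclei of the largest intact one, led by MRC1 and FKBP5, 4, 2, 2 and 22 came from 7, 14, 30 dpi and 6 mpi, while others came mostly from 7 dpi (2934 of 4036 nuclei), 14 dpi (4040 of 4258), 30 dpi (2350 of 2499) or 6 mpi (1182 of 1220).

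The C1q chains were lowest in microglia-like nuclei at 30 dpi. At the other times their levels were also below intact lumbar cord, but several lay within the range of the 3 intact segments. C1QA was at 96.7, 82.4 and 138 CPM in intact cervical, thoracic and lumbar cord and at 88.3, 83.9, 38.1 and 73.7 CPM at 7, 14, 30 dpi and 6 mpi. C1QB was at 79.7, 64.1 and 112 CPM in the intact segments and at 77.7, 53.8, 37.2 and 54.6 CPM after injury. C1QC was at 57.9, 48.1 and 76.2 CPM and then at 70.3, 45.5, 28.7 and 57.0 CPM. Intact lumbar cord, the reference, was the highest of the 3 intact segments for each chain, and the levels of all 3 at 7 dpi, of C1QA at 14 dpi and of C1QC at 6 mpi lay inside the intact range. For C1QC at 7 dpi the log2 ratio was -0.12 (95% interval -0.27 to 0.03) against intact lumbar cord and 0.21 against the mean of the 3 intact libraries. At 30 dpi all 3 chains lay below every intact segment: the log2 ratio to intact lumbar cord was -1.85 for C1QA (95% interval -1.98 to -1.72), -1.59 for C1QB (-1.72 to -1.45) and -1.41 for C1QC (-1.57 to -1.25). C1QB was also past 2-fold and below the intact range at 14 dpi (log2 ratio -1.05) and 6 mpi (-1.03), and neither call was made against the mean of the 3 intact libraries (-0.66 and -0.64). After thinning each nucleus to 1000 UMIs, C1QA was seen in 8.85% to 13.4% of intact microglia-like nuclei and in 8.77%, 7.99%, 4.26% and 6.46% after injury (28.2% to 35.5% and 29.5%, 27.3%, 18.1% and 14.0% unthinned).

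C1QB was seen more often in nuclei with a C1QA UMI than in those without, in all 7 libraries. In intact lumbar cord, 37.8% of microglia-like nuclei with a C1QA UMI also had a C1QB UMI, against 25.3% of those without. At 6 mpi the shares were 27.2% and 9.38%. These shares rise with the depth of a nucleus and were not thinned.

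C3 was highest in microglia-like nuclei at 7 and 14 dpi. It was at 543, 552 and 467 CPM in intact cervical, thoracic and lumbar cord and at 895, 855, 489 and 591 CPM at 7, 14, 30 dpi and 6 mpi. The levels at 7 and 14 dpi and at 6 mpi lay above all 3 intact segments, and that at 30 dpi lay among them. The log2 ratio to intact lumbar cord was 0.94 at 7 dpi (95% interval 0.89 to 0.99) and 0.87 at 14 dpi (0.82 to 0.93), short of 2-fold, and 0.07 (0.01 to 0.12) and 0.34 (0.27 to 0.41) at 30 dpi and 6 mpi. Thinned nuclei with a C3 UMI made up 36.7%, 38.1% and 34.2% of the class in the intact segments and 53.2%, 49.0%, 35.6% and 36.9% after injury (64.9% to 74.2% and 85.0%, 81.4%, 78.4% and 58.0% unthinned). Over all kept nuclei of a library, C3 was further from the intact level, at 37.1, 58.5 and 27.3 CPM in the intact segments and 186, 181, 112 and 106 CPM after injury. Microglia-like nuclei made up 17.7% to 23.0% of the intact libraries and 37.9%, 49.6%, 44.1% and 40.9% of the injured ones.

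ITGAM, the CR3 chain, kept within 2-fold of intact lumbar cord at every time. Its level in microglia-like nuclei was 462, 438 and 449.9 CPM in the intact segments and 540.4, 425, 422 and 303 CPM after injury. It was above the narrow intact range at 7 dpi and below it at the other times, with the lowest level at 6 mpi (log2 ratio -0.57, 95% interval -0.65 to -0.49). Over all kept nuclei ITGAM was at 24.5 to 45 CPM in intact cord and at 111, 89.4, 93.7 and 53.2 CPM after injury.

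**Figure D2:**
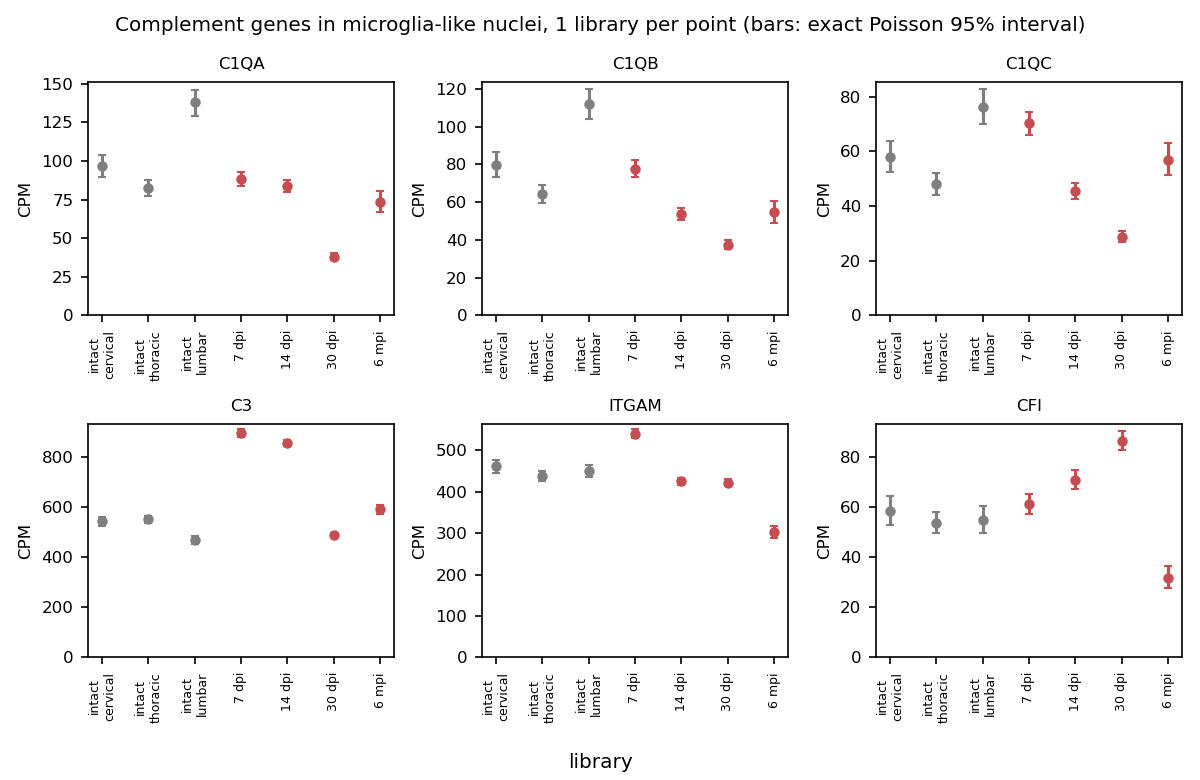
CPM of 6 complement genes in microglia-like nuclei (y axis, from 0) in each library (x axis; grey, intact; red, injured lumbar), with exact Poisson 95% intervals. C3 reaches 895 and 855 CPM at 7 and 14 dpi, the C1q chains are lowest at 30 dpi (28.7 to 38.1 CPM), and CFI is highest at 30 dpi (86.7 CPM) and lowest at 6 mpi (31.9 CPM).

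CFI, the inhibitor, was present in every class. In microglia-like nuclei it was at 58.6, 53.8 and 55.0 CPM in the intact segments and at 61.4, 71.0, 86.7 and 31.9 CPM after injury, above the intact range at 7, 14 and 30 dpi and below it at 6 mpi. Intact levels were 107 to 113 CPM in oligodendrocyte-like, 86.9 to 108 in astrocyte-like, 73.9 to 80.9 in neuron-like and 71.7 to 75.3 in OPC-like nuclei. In ependymal-like nuclei of intact cord CFI was at 136, 176 and 169 CPM, and at 162 CPM at 14 dpi, the only injured library with 50 such nuclei. By the median over libraries the order was oligodendrocyte-, astrocyte-, neuron-, OPC- and microglia-like, and the ranges of all neighbours in that order overlapped. Compared within each library, oligodendrocyte-like nuclei were above astrocyte-like ones in only 3 of 7 libraries. Astrocyte-like nuclei were above neuron-like ones in 7, neuron-like above OPC-like in 6 and OPC-like above microglia-like in 6. Astrocyte-like nuclei moved furthest: CFI was at 258, 134, 192 and 83.3 CPM at 7, 14, 30 dpi and 6 mpi, past 2-fold at 7 dpi (log2 ratio 1.52, 95% interval 1.29 to 1.74) and 30 dpi (1.09, 0.90 to 1.28). Both rested on few nuclei, 98 at 7 dpi and 156 at 30 dpi. At 7, 14 and 30 dpi the level was higher in both astrocyte-like clusters: in the one led by ITGB4 and SLC14A1 it was at 108 to 114 CPM in intact cord and then at 358, 213 and 234, and in the one led by SLC1A2 at 59.1 to 76.4 CPM in intact cord and 126, 95.8 and 126, the first from 38 nuclei. At 6 mpi they were at 156 CPM (104 to 225) and 58.6 CPM (39.8 to 83.2), beside 113 and 73.2 CPM in intact lumbar cord. The class mixes these clusters in changing numbers: 507 and 473 nuclei in intact lumbar cord, and 60 and 38, 89 and 163, 101 and 55, and 36 and 88 after injury. The part of this mix in the class levels was not tested. At 6 mpi CFI was below intact lumbar cord in 4 classes, while the log2 ratio in astrocyte-like nuclei, -0.12, had an interval that included 0 (-0.52 to 0.27). The lowest ratio, -1.13, was that of neuron-like nuclei, where 36.9 CPM compared with 80.9 CPM (95% interval of the ratio -1.24 to -1.03). That library was also the shallowest, and the part of depth was not tested.

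Counted over the members, few were past 2-fold from intact lumbar cord in microglia-like nuclei. A gene was counted when its CPM differed at least 2-fold from intact lumbar cord and lay outside the range of the 3 intact libraries, among genes with at least 50 UMIs in the class; 7 of the 8 members had that many, all but C7. At 7 dpi 1 member was higher and 0 were lower, where 11.2% and 9.40% of all 14838 genes were. At 14 dpi 1 was higher and 1 lower (8.03% and 7.53% of all genes), at 30 dpi 0 were higher and 3 lower (10.0% and 11.1%), and at 6 mpi 0 were higher and 2 lower (16.5% and 6.65%). The 3 lower members at 30 dpi were the C1q chains. The higher member at 7 and 14 dpi was C9, with 17 and 25 UMIs, and its level of 1.09 and 1.24 CPM lay within the counting intervals of each intact library. At 6 mpi it was lower, with 1 UMI (log2 ratio -1.78, 95% interval -7.40 to 1.56), as was C1QB. The median log2 ratio of the 7 members was 0.16, -0.08, -0.09 and -0.78 at 7, 14, 30 dpi and 6 mpi, beside 0.04, -0.09, -0.08 and 0.22 for all genes tested. At 6 mpi the ratios above are therefore to be read against a general shift of 0.22. Of all genes, 3.59% had a lower ratio than C1QA at 30 dpi, and 87.1% and 89.5% had a lower ratio than C3 at 7 and 14 dpi.

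**Figure D3:**
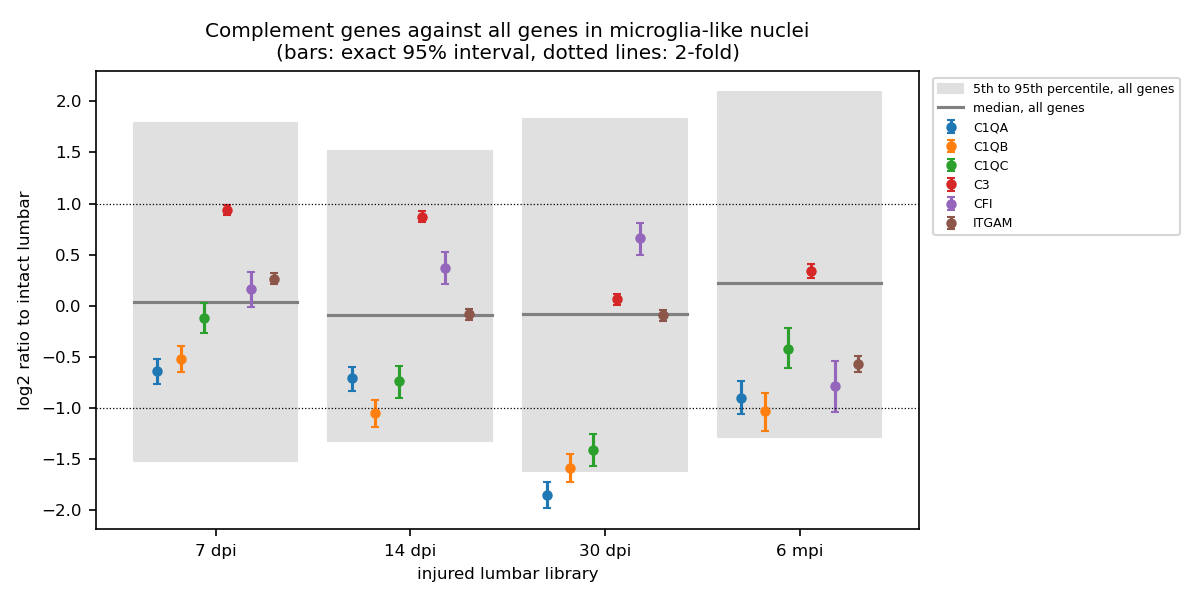
Log2 ratio of CPM in injured over intact lumbar microglia-like nuclei (y axis) at each time (x axis) for 6 complement genes, with exact 95% intervals; the grey box spans the 5th to 95th percentile of all genes, the grey line is their median and dotted lines mark 2-fold. C3 lies near the upper 2-fold line at 7 and 14 dpi (0.94 and 0.87), and the C1q chains lie below the lower one at 30 dpi.

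Microglia-like nuclei were also split by GPNMB, a glycoprotein of lipid-laden and phagocytic macrophages. Nuclei with a GPNMB UMI numbered 7, 30 and 7 in the intact segments and 289, 581, 1413 and 1294 at 7, 14, 30 dpi and 6 mpi, of 3456, 4567, 3847 and 2308. C3 was at 952 CPM in the negative and 386 in the positive nuclei at 7 dpi, 945 and 383 at 14 dpi, 671 and 255 at 30 dpi, and 1022 and 300.0 at 6 mpi. C1QA was at 91.7 and 58.0, 90.4 and 50.2, 54.7 and 16.8, and 152 and 20.7 CPM in the same order. ITGAM was at 562 and 342, 466 and 207, 478 and 349, and 491 and 177 CPM. All 3 genes were lower in the positive nuclei in each injured library. The split rests on a single UMI without thinning, so that it depends on depth: the positive nuclei had median UMIs of 5011, 5086, 6901 and 2511.5 and the negative ones 4148, 3981, 5262 and 2291, and the part of depth or of free GPNMB RNA was not tested. CFI was higher there: 59.2 CPM in negative and 80.6 in positive nuclei at 7 dpi, 65.0 and 102 at 14 dpi, 57.8 and 124 at 30 dpi, and 17.8 and 41.5 at 6 mpi. In negative nuclei at 6 mpi, C3 (1022 CPM) was above intact lumbar cord, where the whole class had 467 CPM. The C1q chains differed among themselves in these nuclei. C1QA was at 152 CPM (counting interval 137 to 168), C1QB at 86.0 (75.0 to 98.2) and C1QC at 93.9 (82.3 to 107). Negative nuclei of intact lumbar cord had 138 (129.6 to 147), 112 (104 to 119.7) and 76.5 CPM (70.3 to 83.1). C1QB was thus lower at 6 mpi, while C1QA and C1QC were higher with intervals that overlapped those of intact lumbar cord.

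**Figure D4:**
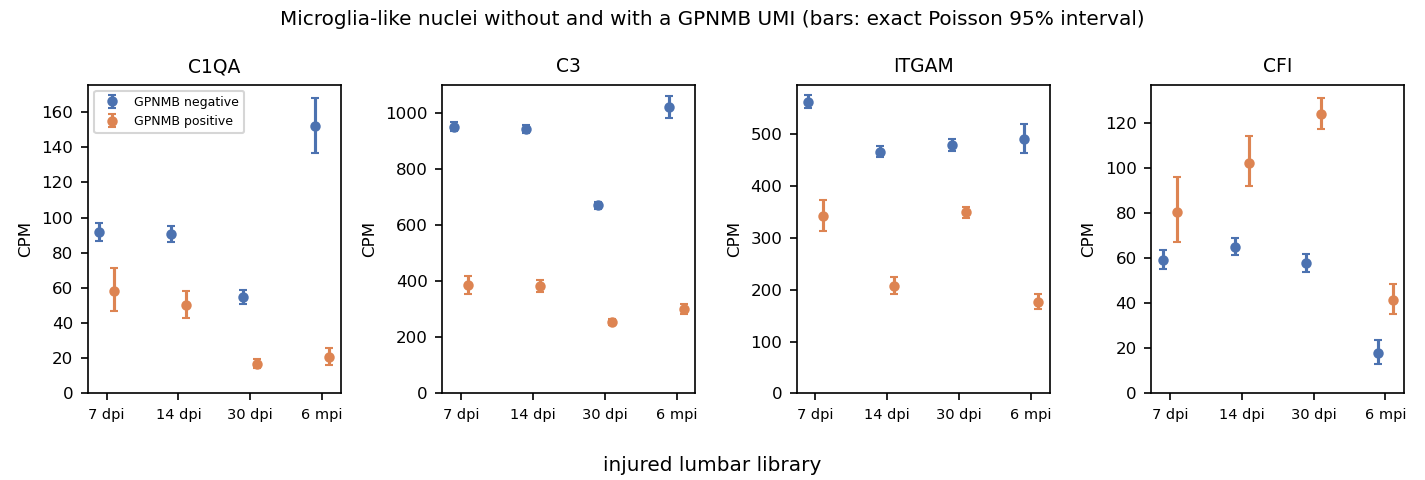
CPM of C1QA, C3, ITGAM and CFI (y axis, from 0) in microglia-like nuclei without (blue) and with (orange) a GPNMB UMI in each injured library (x axis), with exact Poisson 95% intervals. The positive nuclei are lower for C1QA, C3 and ITGAM and higher for CFI at all 4 times.

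The clusters gave the same split. The 2 microglia-like clusters with GPNMB among their leading genes, of 1720 nuclei (1248 from 30 dpi) and 1220 nuclei (1182 from 6 mpi), had C3 at 214 and 257 CPM and C1QA at 16.3 and 15.9 CPM. The clusters drawn mostly from 7, 14 and 30 dpi without GPNMB as a leading gene had C3 at 997, 936 and 659 CPM and C1QA at 107, 90.8 and 55.1 CPM, and the largest intact one had 536 and 102 CPM. A cluster of 521 nuclei led by genes of cell division (TOP2A, MKI67), 444 of them from 7 dpi, had C3 at 488 CPM and C1QA at 44.4 CPM. In the cluster drawn mostly from 7 dpi, C3 was at 999, 879.6, 927 and 1042 CPM in nuclei from 7, 14, 30 dpi and 6 mpi. The 10, 22 and 16 nuclei from intact cervical, thoracic and lumbar cord in that cluster had lower levels, 533 (95% interval 305 to 866), 374 (235 to 567) and 234 CPM (112 to 430.2). Without the GPNMB-led clusters the log2 ratio of C3 to intact lumbar cord was 0.95, 0.99, 0.50 and 1.12 at 7, 14, 30 dpi and 6 mpi, which put C3 past 2-fold at 6 mpi, and that of C1QA was -0.63, -0.64, -1.31 and 0.12. At 6 mpi C1QC (0.32) and ITGAM (0.15) also turned above intact lumbar cord in this setting, C1QB was no longer past 2-fold (-0.41), and CFI was lower past 2-fold (-1.40), while the 1 C9 UMI of that library was in a GPNMB-led cluster, so that none was left for a ratio. The cluster drawn mostly from 7 dpi has C3 among its leading genes, so that C3 must be lower without it. Leaving out that cluster and the GPNMB-led ones left 485 of 3456 nuclei at 7 dpi, 444 of them of the dividing cluster, and the log2 ratio there was 0.18 for C3 and -1.42 for C1QA.

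C1q, C3 and ITGAM were also counted at low levels in the other classes, and most of these levels were higher after injury. C3 in oligodendrocyte-like nuclei was at 1.87, 2.41 and 1.68 CPM in the intact segments and at 10.9, 11.1, 5.00 and 9.40 CPM after injury, and in neuron-like nuclei at 2.48, 4.0 and 2.90 CPM and then at 10.0, 10.5, 8.96 and 7.51 CPM. In astrocyte-like nuclei it was at 2.84, 9.64 and 2.55 CPM and then at 47.0, 8.53, 20.7 and 9.88 CPM, from 39, 15, 38 and 7 UMIs in 16, 12, 12 and 6 nuclei. RNA set free from other nuclei gives such UMIs in droplets, so the levels are given beside those of the 7 microglia/macrophage markers, which neurons should lack. In neuron-like nuclei after injury, C3 stood at 1.12% to 1.83% of its level in microglia-like nuclei of the same library, and the marker median at 0.959% to 1.39%; in intact cord C3 stood at 0.457% to 0.725% and the marker median at 0.377% to 0.552%. The C1q chains in neuron-like nuclei stood at 0.462% to 0.809% in intact cord and at 1.20% to 2.60% after injury, above the marker median of the same library except for C1QC in intact thoracic cord (0.462% beside 0.552%) and at 6 mpi (1.20% beside 1.39%). In oligodendrocyte-like nuclei after injury C3 stood at 1.02% to 1.59%, the C1q chains at 2.10% to 5.83% and the markers at 0.159% to 14.1%, with medians of 0.357% to 0.744%. In astrocyte-like nuclei at 7 dpi, C3 stood at 5.25%, C1QA at 19.1% and ITGAM at 3.79%, beside a marker median of 4.63% and a range of 2.39% to 35.3%. These values lay within the range of the markers in the same nuclei. The C1q chains in astrocyte-like nuclei at 14 dpi did not, at 5.42% to 7.50% beside markers of 0 to 1.99%, nor did they in intact lumbar cord, at 1.03% to 1.21% beside 0 to 0.609%. These C1q values rest on few UMIs: 8, 6 and 6 of C1QA, C1QB and C1QC at 14 dpi, and 13, 9 and 7 in intact lumbar cord. The C1QA ratio of 14 dpi to intact lumbar cord also reversed under another naming of the nuclei (last section). Thinned shares of neuron-like nuclei with a C3 UMI were 0.390% to 1.21% in any library (7.65% to 21.0% unthinned), at median depths far above those of microglia-like nuclei. Free RNA was not subtracted, and in none of these classes can it, or doublets left by the filter, be told apart from expression. The counts past 2-fold were 4 or 5 of 7 members higher in oligodendrocyte-like nuclei (all genes: 12.9%, 7.71%, 7.22% and 13.1% at 7, 14, 30 dpi and 6 mpi), 4 to 6 of 6 in astrocyte-like (16.3%, 7.36%, 9.28% and 14.1%), 2 to 4 of 8 in neuron-like (6.51%, 5.05%, 5.19% and 7.45%) and 1 or 2 of 4 in OPC-like nuclei (6.64%, 4.53%, 5.47% and 11.5%). No member was lower in OPC-like nuclei (all genes: 5.37%, 6.18%, 4.39% and 4.64%) or astrocyte-like nuclei (6.46%, 5.39%, 6.41% and 5.98%), and in neuron-like nuclei 0, 0, 0 and 1 were (4.63%, 3.88%, 3.75% and 4.26%). Of the higher members, C1q, C3 and ITGAM made up most.

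C9, the last protein to join the terminal complex, was found in intact oligodendrocyte-like nuclei and was almost absent from injured ones. Its level there was 11.6, 4.85 and 8.52 CPM in intact cervical, thoracic and lumbar cord, from 473, 209 and 213 UMIs in 366, 188 and 166 nuclei, and no nucleus held more than 8 of them. After injury it was 0.0930, 0.0648 and 0.227 CPM at 7, 14 and 30 dpi, from 2, 1 and 6 UMIs, and no UMI was found at 6 mpi. The log2 ratio to intact lumbar cord was -6.52 at 7 dpi (95% interval -9.57 to -4.65), -7.04 at 14 dpi (-12.35 to -4.55) and -5.23 at 30 dpi (-6.69 to -4.08). Of all genes tested in this class, 0.0125%, 0.00623% and 0.0872% had a lower ratio at these times. Against the floor of 3 UMIs in the library, the level at 6 mpi was at least 24.8-fold lower, and the exact 95% interval of its log2 ratio ended at -4.32. C9 was the only member lower in this class at any time (1 of 7 members, with 5.41%, 5.95%, 5.60% and 5.63% of 16059 genes lower). Thinned nuclei with a C9 UMI made up 1.07%, 0.585% and 0.956% of the class in the intact segments, and 0.0266%, 0, 0.0371% and 0 after injury, where the 0 nuclei have exact upper limits of 0.194% at 14 dpi and 0.191% at 6 mpi.

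Different clusters held most of the intact and of the injured oligodendrocyte-like nuclei, so C9 was also read within clusters. In an OPALIN-expressing cluster of 5585 nuclei, drawn mostly from injured cord, the 54 nuclei of intact lumbar cord had 3 C9 UMIs (15.6 CPM, 95% interval 3.21 to 45.5), while the 1944 of 7 dpi had 1 UMI (0.137 CPM, 0.00347 to 0.764). In another cluster drawn mostly from injured cord, led by FGFR2, the 50 intact lumbar nuclei had 6 UMIs (13.2 CPM) and the 1786 of 7 dpi had 0. In the largest cluster of mostly intact origin, the 1639 intact lumbar nuclei had 33 UMIs (3.95 CPM, 2.72 to 5.55). The 218 nuclei of 6 mpi and the 75 of 14 dpi there had 0 (upper limits 5.06 and 11.0 CPM). In the same cluster 1 UMI was found among the 14 nuclei of 7 dpi (24.2 CPM, 0.612 to 135) and 1 among the 34 of 30 dpi (3.34 CPM, 0.0846 to 18.6). The intervals of these injured nuclei all include 3.95 CPM. Other clusters of mostly intact origin had higher intact lumbar levels: 9.99 (7.11 to 13.7), 8.23 (5.98 to 11.0) and 13.1 CPM (10.5 to 16.1). The 128, 77 and 28 nuclei of 6 mpi there had 0 UMIs, with upper limits of 6.79, 8.13 and 14.2 CPM. Only the first of these limits lay below the intact lumbar interval. At 7, 14 and 30 dpi these clusters also had 0 UMIs, from at most 43 nuclei. The 3 intact libraries came from 1 animal that gave no injured library, so that injury and animal cannot be told apart here. In neuron-like nuclei C9 was at 0.388 to 0.704 CPM in the intact segments and at 1.62, 0.489, 0.529 and 0.275 CPM after injury, which was higher past 2-fold at 7 dpi (log2 ratio 2.06, 95% interval 1.42 to 2.72, from 58 UMIs). Those UMIs lay in 30 of 1092 nuclei, of which 3 had one after thinning, against 1, 1 and 2 nuclei in the intact segments.

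C7, which joins the terminal complex before C9, was rare, with 580 UMIs in all kept nuclei. Its level in astrocyte-like nuclei was higher after injury. In this class it was at 1.66, 0.786 and 0.638 CPM in intact cervical, thoracic and lumbar cord, from 14, 15 and 5 UMIs, and at 9.65, 14.8, 31.6 and 7.06 CPM at 7, 14, 30 dpi and 6 mpi, from 8, 26, 58 and 5 UMIs. The log2 ratio to intact lumbar cord was 3.92 (95% interval 2.12 to 5.88), 4.53 (3.13 to 6.27), 5.63 (4.32 to 7.31) and 3.47 (1.35 to 5.59). Of all genes tested in this class, 99.2%, 99.9%, 99.9% and 98.7% had a lower ratio. The UMIs lay in few nuclei, 7 of 881, 12 of 1711 and 4 of 980 in the intact segments and 5 of 98, 9 of 252, 21 of 156 and 3 of 124 after injury, and 1 nucleus held 10 of the 26 UMIs at 14 dpi and 11 of the 58 at 30 dpi. After thinning, 3, 1, 4 and 0 of the injured nuclei had a C7 UMI (3.06%, 0.397%, 2.56% and 0), and 2 in each intact segment (0.227%, 0.117% and 0.204%), which is close to the limit of detection. Within the astrocyte-like cluster led by ITGB4 and SLC14A1 the level was 0.752 to 2.94 CPM in intact cord and 10.6, 38.7 and 49.6 CPM at 7, 14 and 30 dpi. In the cluster led by SLC1A2 it was 0 to 0.959 CPM in intact cord and 8.41, 3.36 and 2.83 CPM at these times, the first from 38 nuclei. Those injured levels came from 3, 4 and 2 UMIs, at each time in 1 nucleus. Their lower limits were 1.73, 0.916 and 0.343 CPM, beside upper limits of 2.80 CPM in intact thoracic and 0.828 CPM in intact lumbar cord.

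High C7 levels were found in an unnamed cluster of 84 nuclei with the fibroblast genes DCN and COL1A2 and mural markers, where it was at 171, 43.8 and 264 CPM in the intact segments, from 30, 13 and 22 nuclei with 31, 5 and 21 UMIs. At 7 dpi this cluster had 4 nuclei, all with C7, and 42 UMIs, and at 30 dpi it was at 32.0 CPM from 1 UMI. The endothelial-like cluster held 47 C7 UMIs in all. Its level was 153 CPM in intact cervical cord, from 25 UMIs in 5 of 36 nuclei, and 29.8 CPM in intact thoracic cord, from 8 UMIs in 2 of 43. The 42 nuclei of intact lumbar cord had none (upper limit 18.2 CPM). At 30 dpi it was at 92.7 CPM, from 8 UMIs in 2 of 14 nuclei. Fibroblast and mural markers were also measured in astrocyte-like nuclei. In the intact segments they summed to 200.4, 167 and 222 CPM in the nuclei with a C7 UMI and to 164, 132 and 144 CPM in those without. After injury they were at 403, 101, 110.5 and 86.1 CPM in the 5, 9, 21 and 3 nuclei with C7 and at 110.4, 178, 152 and 140.1 CPM in the others. The markers were thus higher with C7 in intact cord and at 7 dpi and lower with it at the later times, and their part in the C7 levels was not tested. In microglia-like nuclei C7 had 16 UMIs in all. In neuron-like nuclei it was at 0.718 CPM in intact lumbar cord, where 29 of the 63 UMIs lay in 1 nucleus. After injury it was at 0.836, 0.594, 0.635 and 0.732 CPM there.

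**Figure D5:**
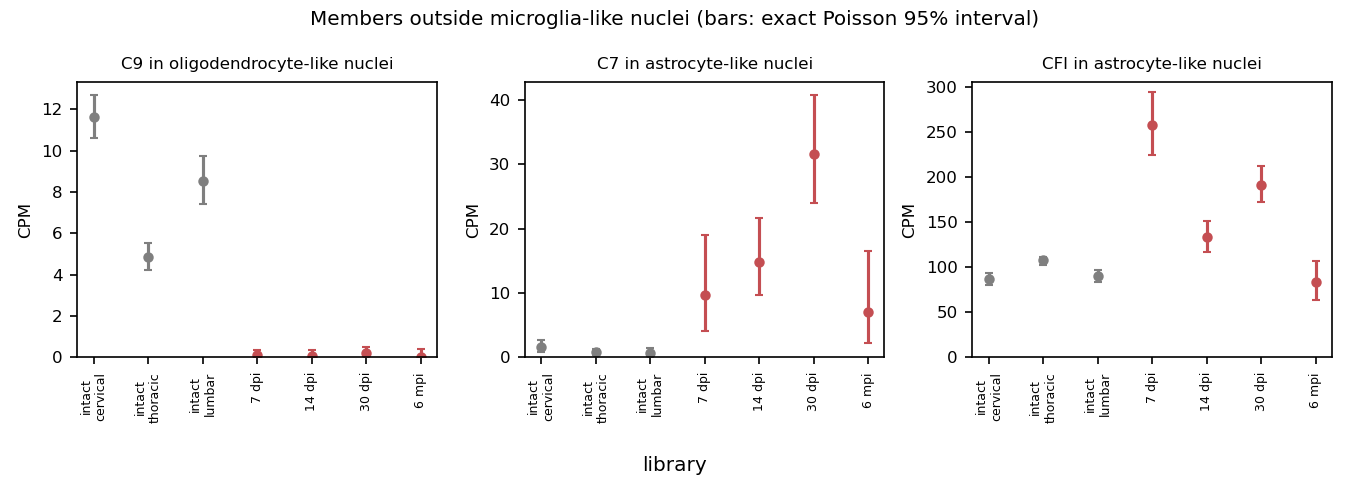
CPM (y axes, from 0) of C9 in oligodendrocyte-like nuclei and of C7 and CFI in astrocyte-like nuclei in each library (x axis; grey, intact; red, injured lumbar), with exact Poisson 95% intervals. C9 is at 4.85 to 11.6 CPM in intact cord and at or under 0.227 CPM after injury, C7 is at or under 1.66 CPM in intact cord and at 7.06 to 31.6 CPM after injury, and CFI is highest at 7 dpi (258 CPM).

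The other complement genes were taken from lists of 47 further components, regulators and receptors, of which 41 were found and 28 had at least 50 UMIs in microglia-like nuclei. In that class 9, 5, 8 and 9 of the 28 were past 2-fold higher at 7, 14, 30 dpi and 6 mpi, and 6, 2, 5 and 2 were lower, against the shares of all genes given above. Their median log2 ratio was -0.02, 0.18, 0.07 and 0.22. Those higher in at least 3 of the 4 injured libraries came from 4 of the 7 lists. Both integrin chains of the lists were among them: ITGAX (CD11c), a chain of complement receptor CR4, was at 66.3, 96.6 and 68.5 CPM in the intact segments and at 497, 343, 943 and 909 CPM after injury. ITGB2, which pairs with ITGAM and ITGAX, was at 42.9, 37.7 and 34.7 CPM and then at 121, 74.1, 82.0 and 101 CPM. ITGAM itself was not past 2-fold at any time.

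Regulators on the membrane differed among themselves. SUSD4, which restrains the C3 convertases, was at 98.1 to 103 CPM in intact cord and at 333, 448, 178 and 304 CPM after injury. CD59, which blocks the terminal complex, was at 7.83 to 15.1 CPM and then at 35.0, 30.3, 36.2 and 39.4 CPM. CR1, a receptor for coated targets and cofactor of CFI, was at 2.45 to 2.68 CPM and then at 6.96, 3.11, 14.1 and 18.1 CPM. CD55, which speeds the decay of convertases, was in contrast at 537 to 604 CPM in intact cord and at 348, 339, 320.4 and 327 CPM after injury, below every intact segment and short of 2-fold. CD46, another cofactor of CFI, stayed near its intact range of 306 to 353 CPM, at 334, 329.7, 359.8 and 327 CPM. CD55, CD46 and ITGAX had the highest CPM of the lists in this class.

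CFB, a soluble component that forms the alternative pathway convertase with C3, was higher at all 4 times: 9.12 to 9.57 CPM in intact cord and 34.8, 29.8, 22.4 and 35.1 CPM after injury. COLEC12, a scavenger receptor of the collectin family, was at 0.563, 6.68 and 0.953 CPM in the intact segments and at 16.7, 4.35, 99.8 and 67.8 CPM after injury. The genes lower in at least 3 injured libraries were counted at low levels. C4BPB, a chain of the C4b-binding protein, was at 2.49 to 5.31 CPM in intact cord and at 3.35, 1.53, 2.43 and 0.318 CPM after injury, and VTN (vitronectin) was at 1.09 to 1.16 CPM and then at 0.258, 0.396, 0.0798 and 1.11 CPM. Of the C1 proteases and their inhibitor 1 of 3 listed genes had 50 UMIs in the class, and of the terminal components 1 of 4. In oligodendrocyte-like nuclei 6 to 11 of 28 listed genes were higher and 1 to 3 lower, where 7.22% to 13.1% and 5.41% to 5.95% of all genes were. In astrocyte-like nuclei 7 to 12 of 25 were higher and 0 to 2 lower (all genes: 7.36% to 16.3% and 5.39% to 6.46%). In neuron-like nuclei 3 to 8 of 33 were higher and 1 or 2 lower (5.05% to 7.45% and 3.75% to 4.63%), and in OPC-like nuclei 3 or 4 of 17 were higher and 0 to 2 lower (4.53% to 11.5% and 4.39% to 6.18%). Background from other nuclei was not subtracted from these counts.

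For each member the genes, other than the members themselves, with the most similar profile of log2(CPM + 1) were sought. The profile had 43 points, the class by library levels of 7 classes. The points share libraries and depth, and Pearson's r describes them. For C1QA these were GNA15 (r = 0.958), SLC15A3 (0.958) and CCR1 (0.944), for C1QB SH3TC1 (0.963), CX3CR1 (0.949) and SUSD3 (0.946), and for C1QC FCGR1A (0.956), CMKLR1 (0.947) and CASP5 (0.943). Outside the members, C3 was most like CD74 (0.959), FCGR1A (0.959) and ADA2 (0.957), and ITGAM most like CSF1R (0.973), P2RY12 (0.964) and BLNK (0.962). C3 and ITGAM were more like each other (0.975) than like any of these. The profiles of CFI, C7 and C9 had less similar neighbours: PEBP4 (0.783), SLC44A3 (0.720) and RHOU (0.709) for CFI, RRAD (0.883), GJC1 (0.870) and CAPN8 (0.835) for C7, and ROPN1 (0.705), FAM163A (0.660) and TMEM92 (0.654) for C9.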

How the data were processed

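The authors prepared nuclei, sequenced 1 droplet library per group, ran Cell Ranger 6.0.0 per the labels, and deposited raw UMI counts as one matrix for each library, covering 35432 gene identifiers. The study names Mmul_10 as its genome, and the annotation release is not given in the sources used here. Symbols were those of the matrices, with 959 identifiers named from the reference table. In all there were 69332 barcodes and 777183139 UMIs, 45079131 to 150987900 in a library.

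A barcode was retained with more than 500 genes and 1000 UMIs, mitochondrial UMIs below 10% and hemoglobin UMIs below 5% (67084 barcodes). Simulated doublets were then mixed in, and in every library the 5% of barcodes with most of them among 50 neighbours were dropped, which left 63726. Clustering used 2000 variable genes that excluded the members and all listed complement genes, 30 principal components, 20 neighbours and the Leiden algorithm (resolution 1, seed 1), with no integration of libraries. For naming, each class was scored in a cluster as the mean, over its markers, of log2 CPM relative to the median cluster after adding 10 CPM, and the best class was taken where 3 or more markers were seen in 10% of nuclei. Clusters remained unnamed when markers of a different class outnumbered their own in the 10 leading genes, when UMIs were low and no own marker led, or when the runner-up scored above 0.5 of the best. This score replaced a first one after the clusters had been seen, which had left the clusters led by CD74 and GPNMB unnamed. Free RNA was not subtracted.

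Levels are UMI sums of a class in a library over the sum of all its genes, with Poisson intervals at 95%. Levels of a class needed 50 nuclei in the library; levels of single clusters and of GPNMB-positive nuclei are given below that number too. Intervals of ratios are conditional binomial and those of shares Clopper-Pearson, all exact and covering counting error only. A floor of 3 counts stood for 0 UMIs in a ratio. No p-value was computed. Members and lists were chosen with earlier results of these data known. All members are described, and a listed gene is named if past 2-fold in one direction in at least 3 of the 4 injured microglia-like libraries or if among the 3 with the highest CPM there. Motif patterns were picked after the levels were seen, and sequences and positions follow RefSeq's annotation of Mmul_10. The alternatives were doublets kept, resolution 2, nuclei named alone after thinning to 1000 UMIs, the mean of the 3 intact libraries as reference, median-of-ratios size factors, means over nuclei, nuclei with at least 2000 UMIs, and other UMI minimums for a gene. Added after the data were seen were runs without the GPNMB-led clusters, without clusters left unnamed by the first score, and without barcodes shared by libraries. Software was leidenalg 0.10.2 with igraph 0.11.9, scikit-learn 1.9.0, scipy 1.17.1, numpy 2.4.6, matplotlib 3.10.9 and pandas 2.3.3 under Python 3.11.15.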

Additional observations from a re-analysis of the deposited data

How the results depend on the processing

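No paired analysis was possible because each group had 1 library and the labels carry no replicate numbers, and for the same reason no library could be left out of its group. The C1q chains were lower past 2-fold at 30 dpi in microglia-like nuclei under every alternative tried. The count of members higher at 7 dpi, 1 (C9), was 0 with doublets kept, at resolution 2, with nuclei named alone after thinning, against the mean of the 3 intact libraries, with median-of-ratios size factors, as a mean over nuclei and, added after the data were seen, without the clusters left unnamed by the first score. The count lower at 6 mpi, 2 (C1QB and C9), was 1 with doublets kept (C1QB), against the mean intact level (C9), in nuclei with at least 2000 UMIs (C9) and without the GPNMB-led clusters (CFI), and 0 without the clusters left unnamed by the first score. It was 3, with C1QA added, with median-of-ratios factors and as a mean over nuclei, and with nuclei named alone after thinning it stayed at 2 but held CFI in place of C1QB. At 14 dpi 1 higher and 1 lower member became 0 and 0 against the mean intact level, and 0 were lower with median-of-ratios factors. Without the GPNMB-led clusters 1 member (C3) was higher at 6 mpi, and without the clusters left unnamed by the first score 1 (C1QA) was lower at 7 dpi. Of all genes in this class, 1117 lower at 14 dpi became 1677 with at least 10 UMIs of a gene and 1731 with at least 1, and 1395 lower at 7 dpi became 2132 with at least 1, as more genes were tested. The log2 ratio of C1QA in astrocyte-like nuclei at 14 dpi (1.46) turned to -0.10 with nuclei named alone after thinning; the cause was not tested. Of the other log2 ratios, 910 moved by less than their counting interval and 97 by more. The runs without the GPNMB-led clusters and without the clusters left unnamed by the first score were not part of this count. Of the levels compared, 405 stayed within their counting interval and 155 did not. C7 and, after injury, C9 rest on few UMIs, and with 1 animal per group no value carries the spread between animals.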
